A study of Mus musculus with 8 samples.

Results

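A set of 9 genes that repair, shape or fold the muscle fibre membrane was followed here in EDL (extensor digitorum longus) of the mouse, a fast muscle of the hindlimb. The members are Dysf, Trim72, Ano5, Cav3, Bin1, Mtm1, Anxa1, Anxa2 and Anxa6, out of 20145 named genes with a probe on the array. They were chosen by name, as every non-control probe whose RefSeq accession maps to 1 of these symbols, and they are represented by 11 probes. Of these, 10 probes of 8 genes passed the filter on dim signal that 12739 genes passed in all, which asked that at least 4 of the 8 arrays show the spot well above background. The Ano5 probe did not pass it.

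The study compared male C57BL/6 mice of the line called PCKO, in which p300 (Ep300) and CBP (Crebbp) are deleted inducibly in skeletal muscle, with wildtype (WT) mice. Knockout mice aged 13 to 15 weeks at the first dose received tamoxifen by gavage on 5 days, and the day after the last dose animals were killed following a fast of 4 h. The labels give 1 protocol for both groups and do not say separately whether WT mice received tamoxifen, the genotype field of the knockout samples names CBP alone, and neither the recombinase nor its promoter is named in them. Each group held 4 mice with 1 single-colour Agilent array per mouse.

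All 8 arrays lay on 1 slide, with 2 arrays of each group in each of its 2 rows, but the PCKO arrays took its left columns and the WT arrays its right ones, so slide column and group cannot be told apart. Between 43.5% and 46.1% of the 55681 non-control probes were well above background on each array, and none was saturated. Log2 signals of arrays of the same group correlated at r = 0.988 to 0.991 across the tested probes, and those of arrays of different groups at 0.916 to 0.930. The targeted genes were lower in PCKO muscle on the array-scaled signal, Ep300 by a log2 difference of -1.44 ± 0.11 (SE, n = 4 and 4, limma adjusted p = 9.6e-06) and Crebbp by -0.70 ± 0.11 (adjusted p = 6.0e-04). Centred on spike-in controls in place of the percentile, Ep300 had -0.76 (adjusted p = 0.022) and Crebbp -0.02 (adjusted p = 0.96). Whether their probes lie in the deleted parts was not tested. All 9 of the listed markers of fast fibres passed the filter, so the labelled tissue carried its defining genes.

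The sarcolemma of a muscle fibre is torn during contraction and is resealed within moments by a calcium-triggered patch. Dysferlin (Dysf) is a membrane-anchored calcium sensor for vesicle fusion, MG53 (Trim72) is a muscle-restricted tripartite motif protein that gathers vesicles at the wound, annexins bind the exposed acidic phospholipids in the presence of calcium, and anoctamin 5 (Ano5) belongs to a family of lipid scramblases and chloride channels. Caveolin 3 (Cav3) is the muscle form of the coat protein of caveolae, the small flask-shaped pits of the sarcolemma. Amphiphysin 2 (Bin1) bends membrane into the transverse tubules that carry the action potential into the fibre, and myotubularin (Mtm1) is a phosphatase that removes the 3-phosphate of phosphoinositides and is needed for triads to form. Mutations in the human counterparts of Dysf, Ano5 and Cav3 cause muscular dystrophies and related myopathies, and those of Mtm1 and Bin1 cause centronuclear myopathy. The annexin members are expressed in many cell types, whereas Trim72 and Cav3 are largely restricted to striated muscle.

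The promoters below are printed because these 4 genes span the range of the results: Trim72 had the lowest PCKO value relative to WT, Cav3 is the other muscle-restricted member, Anxa2 is a widely expressed annexin, and Mtm1 is the tested member with no change called. Each is the 250 bases before the annotated start of transcription, taken from RefSeq on GRCm38.p6 and read 5′ to 3′ on the plus strand, which is the strand of all 4 genes. Capitals mark the E-box CANNTG, the core letters bound by MyoD-family and other basic helix-loop-helix factors. Trim72 lies at chr7:128004128-128004377, Cav3 at chr6:112459255-112459504, Mtm1 (the first of its 3 listed starts) at chrX:71210517-71210766 and Anxa2 at chr9:69453433-69453682.
Trim72: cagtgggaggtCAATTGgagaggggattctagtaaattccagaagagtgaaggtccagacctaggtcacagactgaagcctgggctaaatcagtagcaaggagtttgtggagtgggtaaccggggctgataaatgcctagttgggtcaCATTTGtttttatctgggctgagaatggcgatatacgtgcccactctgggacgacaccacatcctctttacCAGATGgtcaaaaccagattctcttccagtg
Cav3: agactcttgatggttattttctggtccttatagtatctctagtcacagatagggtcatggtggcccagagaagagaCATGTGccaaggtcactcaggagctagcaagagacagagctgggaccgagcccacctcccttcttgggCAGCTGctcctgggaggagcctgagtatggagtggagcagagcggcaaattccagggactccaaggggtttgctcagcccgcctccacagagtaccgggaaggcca
Mtm1: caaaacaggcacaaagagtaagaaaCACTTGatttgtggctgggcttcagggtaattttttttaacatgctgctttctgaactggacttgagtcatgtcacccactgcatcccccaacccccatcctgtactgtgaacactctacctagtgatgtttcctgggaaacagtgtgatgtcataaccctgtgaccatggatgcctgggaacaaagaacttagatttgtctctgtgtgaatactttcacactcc
Anxa2: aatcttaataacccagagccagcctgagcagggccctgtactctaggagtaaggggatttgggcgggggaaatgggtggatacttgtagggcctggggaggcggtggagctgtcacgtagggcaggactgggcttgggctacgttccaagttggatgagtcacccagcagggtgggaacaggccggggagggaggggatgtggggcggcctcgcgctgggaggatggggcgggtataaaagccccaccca

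The Trim72 window holds 3 E-boxes, which begin at -239, -102 and -31 relative to the start of transcription. The Cav3 window holds 2, at -174 and -106, and the second of them reads CAGCTG. The Mtm1 window printed holds 1, at -225, and the Anxa2 window none. The Mtm1 windows not printed, which overlap each other, hold 3 (at -209, -98 and -55) and 2 (at -166 and -123). The count in the Mtm1 windows thus ran from 1 to 3, and which start the Mtm1 probes report was not tested. RefSeq promoters were used for 7 of the 9 members, 10 in all. That of Bin1 was not examined, and none was listed for Anxa6. Those of Dysf and Anxa1 hold no E-box while that of Ano5 holds 1. Of 32851 promoters of the same length, 66.2% hold CANNTG and 13% hold CAGCTG on either strand, so an E-box is the common state. None of the 10 windows used holds TGACG (17.8% of all promoters, both strands), the core of the cyclic AMP response element. None holds a MEF2 site (2.92%) or CArG box (1.47%). A match describes the letters only, and an absent one says nothing about any factor.

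Of the 8 tested members, 7 were lower in PCKO muscle and 0 were higher, when each gene was represented by its brightest probe and each array was scaled to its 75th percentile. The falls ran from 1.92-fold for Anxa6 to 11.2-fold for Trim72, and Mtm1 did not pass the test. Across all genes tested, 31.9% were lower and 37.5% higher at the same threshold (limma, Benjamini-Hochberg adjusted p under 0.05), so a single lower call is common in this comparison. The median log2 difference of the 8 members was -1.30, against 0.06 for all genes. Of them 6 fell by at least 2-fold, which 13.9% of all genes did, and in 7 the groups did not overlap with PCKO lower, as in 29.7% of all genes. Counted by probe, 8 of 10 were lower and 0 higher, against 31.3% and 33.8% of all probes. The tests set the difference between the groups against the spread between these mice within each group.

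**Figure D1:**
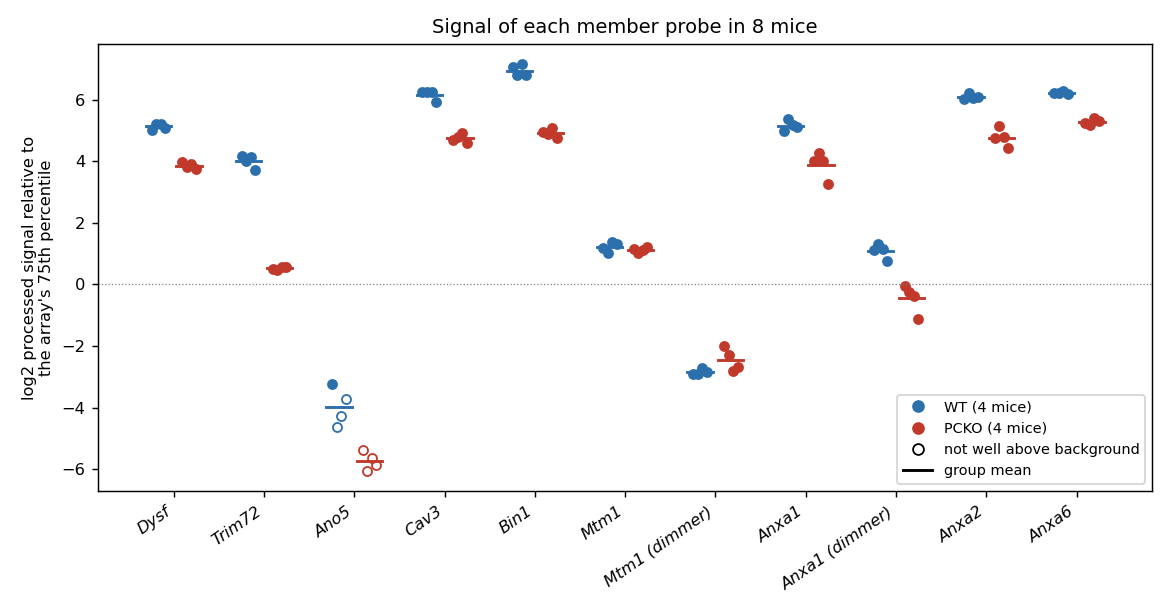
Log2 processed signal of each of the 11 member probes, scaled to the array's 75th percentile, in 4 WT (blue) and 4 PCKO (red) mice. Points are mice, bars are group means and open points are spots not well above background. The PCKO points lie below all WT points for Trim72, Bin1, Cav3, Dysf, Anxa1, Anxa2 and Anxa6, and the groups overlap for both Mtm1 probes.

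Trim72, the muscle-restricted repair protein MG53, showed the lowest PCKO signal relative to WT of all members (probe A_55_P2026848). Its scaled log2 signal was 4.17, 4.01, 4.15 and 3.72 in WT mice 1 to 4 and 0.50, 0.46, 0.58 and 0.56 in PCKO mice 1 to 4. The groups were separated by 3.14 log2 units, while the 4 PCKO mice lay between 0.46 and 0.58. It had a log2 difference of -3.49 ± 0.11 (SE, n = 4 and 4, limma adjusted p = 7.4e-08), which left 8.91% of the WT signal. Only 1.65% of all genes tested had a difference at or below it. It was -3.61 in the first slide row alone and -3.36 in the second.

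Dysf, the calcium sensor of the repair patch, fell by far less (probe A_55_P1964183). Its scaled log2 signal was 5.03, 5.21, 5.21 and 5.09 in WT mice and 3.97, 3.83, 3.91 and 3.74 in PCKO mice. Every PCKO mouse lay at least 1.06 below the lowest WT mouse. The log2 difference was -1.27 ± 0.086 (limma adjusted p = 4.2e-06), which left 41.4% of the WT signal, and 10.2% of all genes had a difference at or below it. With arrays centred on spike-in controls in place of the 75th percentile, the difference was -0.59 and no longer passed (adjusted p = 0.075).

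Ano5, the anoctamin of repair-deficient dystrophy, was near the limit of detection (probe A_55_P2369981). Its spot was well above background on 1 of the 4 WT arrays and on 0 of the 4 PCKO arrays. Its scaled log2 values were -3.24, -4.63, -4.27 and -3.72 in WT mice and -5.38, -6.06, -5.65 and -5.88 in PCKO mice. The groups do not overlap, but 7 of these 8 values are not well above background, so no fold or test is given.

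Cav3, the coat protein of muscle caveolae, was lower in every PCKO mouse (probe A_51_P255304). Its scaled log2 signal was 6.24, 6.26, 6.24 and 5.92 in WT mice and 4.69, 4.80, 4.92 and 4.60 in PCKO mice. WT mouse 4 stood below the other WT mice, and still lay 0.998 above the highest PCKO mouse. Cav3 fell by 1.41 ± 0.11 on the log2 scale (limma adjusted p = 1.0e-05), which left 37.6% of the WT signal, and 8.74% of all genes had a difference at or below it. Spike-in centring gave -0.73 (adjusted p = 0.027).

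Bin1, which bends the membrane of the T-tubule, had the second lowest PCKO signal relative to WT (probe A_55_P2073308). Its scaled log2 signal was 7.05, 6.79, 7.15 and 6.79 in WT mice and 4.96, 4.90, 5.08 and 4.76 in PCKO mice, which left a gap of 1.71 between the groups. The log2 difference was -2.02 ± 0.12 (limma adjusted p = 1.6e-06), a 4.06-fold lower signal, and 4.62% of all genes had a difference at or below it. The array measures 1 region of the transcript, so the muscle-specific splice form of Bin1 was not measured apart from the others.

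Mtm1, the other T-tubule member, is measured by 2 probes that refer to different transcripts, and neither passed the test. The brighter (A_55_P2043982) had scaled log2 signals of 1.18, 1.02, 1.37 and 1.30 in WT mice and 1.15, 1.02, 1.12 and 1.23 in PCKO mice. These groups overlap, and the log2 difference was -0.086 ± 0.098 (limma adjusted p = 0.46), with 43.4% of all genes at or below it. The dimmer (A_55_P2043977) had -2.90, -2.92, -2.73 and -2.84 in WT mice and -2.01, -2.30, -2.80 and -2.68 in PCKO mice, where PCKO mice 1 and 2 stood highest. Its log2 difference was 0.40 ± 0.17 (limma adjusted p = 0.067), against -0.16 with another background correction. With spike-in centring the brighter probe had 0.60 (adjusted p = 0.072) and the dimmer 1.08 (adjusted p = 0.0010), so the sign of Mtm1 depends on the scaling.

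All 3 annexin members fell, from 1.92-fold for Anxa6 to 2.50-fold for Anxa2. On spike-in centring 0 of the 3 passed the test on their brighter or only probe. The dimmer Anxa1 probe did stay lower there (-0.85, limma adjusted p = 0.0096). Anxa1, a calcium-dependent phospholipid-binding protein also known for its anti-inflammatory role, has 2 probes. On the brighter (A_55_P2092826) its scaled log2 signal was 4.99, 5.37, 5.18 and 5.10 in WT mice and 4.02, 4.28, 4.01 and 3.26 in PCKO mice. PCKO mouse 4 was the lowest of all 8, and the groups do not overlap. The log2 difference was -1.27 ± 0.21 (limma adjusted p = 7.3e-04). On the dimmer probe (A_66_P120567) the WT values were 1.11, 1.31, 1.17 and 0.76 and the PCKO values -0.06, -0.24, -0.37 and -1.12. That probe gave -1.53 ± 0.23 (limma adjusted p = 4.4e-04), so both probes moved the same way, and PCKO mouse 4 was again lowest.

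Anxa2, which forms a complex with the S100 protein S100a10 at the inner face of the membrane, was lower in every PCKO mouse (probe A_55_P2110713). Its scaled log2 signal was 6.01, 6.22, 6.05 and 6.08 in WT mice and 4.75, 5.13, 4.79 and 4.42 in PCKO mice. The gap between the groups was 0.88, wider than the range of either group. It fell by 1.32 ± 0.14 on the log2 scale (limma adjusted p = 7.2e-05), and 9.63% of all genes had a difference at or below it.

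Anxa6, the annexin with a duplicated core that caps the repair site in muscle, had the smallest fall of the 7 members called (probe A_55_P2076792). Its scaled log2 signal was 6.23, 6.22, 6.27 and 6.19 in WT mice and 5.25, 5.20, 5.42 and 5.30 in PCKO mice. Both groups were tight and lay 0.77 apart. The log2 difference was -0.94 ± 0.077 (limma adjusted p = 1.3e-05), which left 52.2% of the WT signal, and 15.6% of all genes had a difference at or below it.

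The size of these falls depends on what the arrays are scaled to. The 75th percentile of the non-control probes stood at -2.80 ± 0.333 (SD, n = 4) log2 units relative to the mean of 7 spike-in probes in PCKO arrays and at -3.48 ± 0.295 in WT arrays, a difference of 0.68 (p = 0.0286 by a two-sided exact permutation test, the lowest value possible with 4 against 4). Spike-in centring therefore moved every difference up by that amount, and the median of all genes from 0.06 to 0.74. The share of genes called lower went from 31.9% to 9.4% and the share called higher from 37.5% to 54.1%, while quantile normalization gave 28.4% and 42.4%. By probe, 4 of 10 member probes were then lower and 1 higher, against 9.6% and 52.8% of all probes. On spike-in centring 3 members, Trim72 (-2.81), Bin1 (-1.34) and Cav3, remained lower with an adjusted p under the threshold. Dysf, Anxa1 on its brighter probe (-0.59, adjusted p = 0.077), Anxa2 (-0.64, adjusted p = 0.054) and Anxa6 (-0.26, adjusted p = 0.46) did not pass. The dimmer Anxa1 probe was among the probes that stayed lower (-0.85, limma adjusted p = 0.0096). With spike-in centring the SE of Dysf was 0.296, against 0.086 with the 75th percentile.

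**Figure D2:**
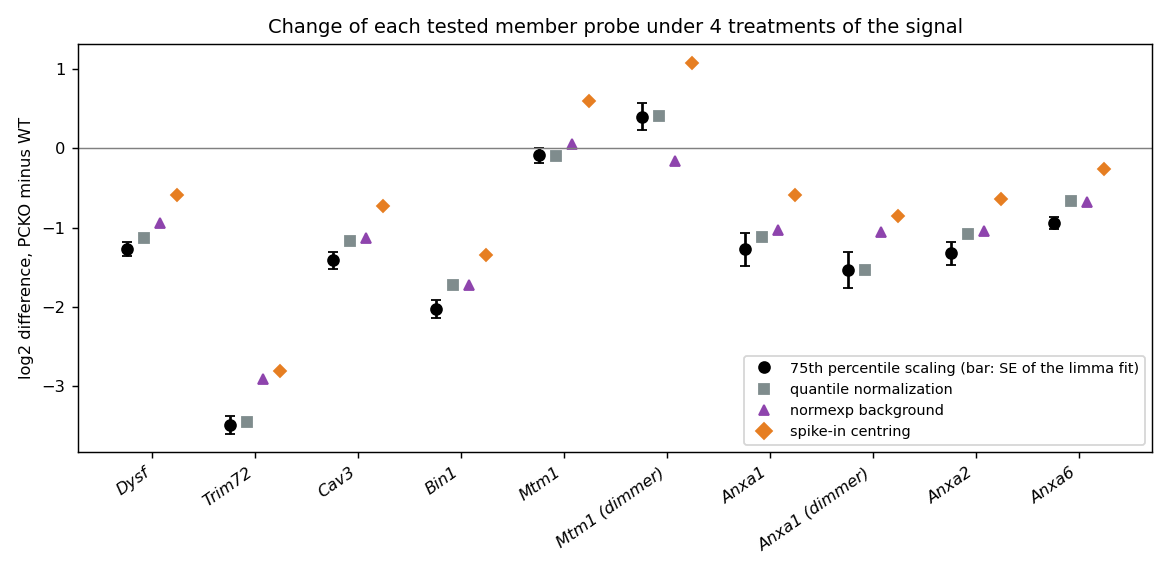
Log2 difference, PCKO minus WT, of each of the 10 tested member probes under 75th percentile scaling (black, bars are SE of the limma fit), quantile normalization (grey squares), normexp background correction (purple triangles) and spike-in centring (orange diamonds). Trim72 stays between -3.49 and -2.81 under all 4, and both Mtm1 probes change sign with the treatment of the signal.

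Whether the members outside the annexin family changed by a different amount from the annexins was tested within arrays, where any scaling of a whole array cancels. For each of 15 pairs, the log2 signal of an annexin was subtracted from that of the other gene on the same array, and the 4 PCKO values were set against the 4 WT values (exact permutation test, two-sided, adjusted over the 15 pairs). Only the change of this difference between groups is read, since 2 probes cannot be compared in level. The groups did not overlap in 10 of the 15 pairs, each at an exact p = 0.0286, the smallest possible, and adjusted p = 0.0429. At that smallest p no pair could pass the adjustment alone, so each call rests on other pairs having separated too. The 15 pairs reuse the same 8 genes, and how often pairs of other genes separate was not tested.

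Trim72 fell further than each annexin, by 2.22 log2 units relative to Anxa1, 2.17 relative to Anxa2 and 2.55 relative to Anxa6. Its difference from Anxa6 was -2.06, -2.21, -2.13 and -2.47 in WT mice and -4.75, -4.74, -4.84 and -4.74 in PCKO mice. Bin1 fell further than Anxa6, by 1.08, and than Anxa2, by 0.70. Its change relative to Anxa1 was -0.75, but the groups overlapped through PCKO mouse 4, in which Anxa1 was lowest (exact p = 0.0571, adjusted p = 0.078).

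Dysf and Cav3 could be told apart from Anxa6 alone among the annexins. Dysf fell 0.33 further than Anxa6, a difference that no longer passed with normexp background correction (-0.27, exact test, adjusted p = 0.117) and was -0.22 in slide row 1 and -0.45 in row 2. Cav3 fell 0.47 further than Anxa6. Relative to Anxa1, the change of Dysf was -0.0014 (exact p = 1) with a range of -0.45 to 0.48 among PCKO mice, and relative to Anxa2 it was 0.05 (p = 0.80). The change of Cav3 was -0.14 relative to Anxa1 (exact p = 0.51) and -0.09 relative to Anxa2 (p = 0.57), values within the spread between mice. Mtm1 stood apart in the other direction, with a change of 1.18 relative to Anxa1, 1.24 relative to Anxa2 and 0.85 relative to Anxa6. Of the muscle-restricted members, Trim72 differed from each of them by at least 4.49-fold, and Cav3 from Anxa6 only, by 1.39-fold.

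**Figure D3:**
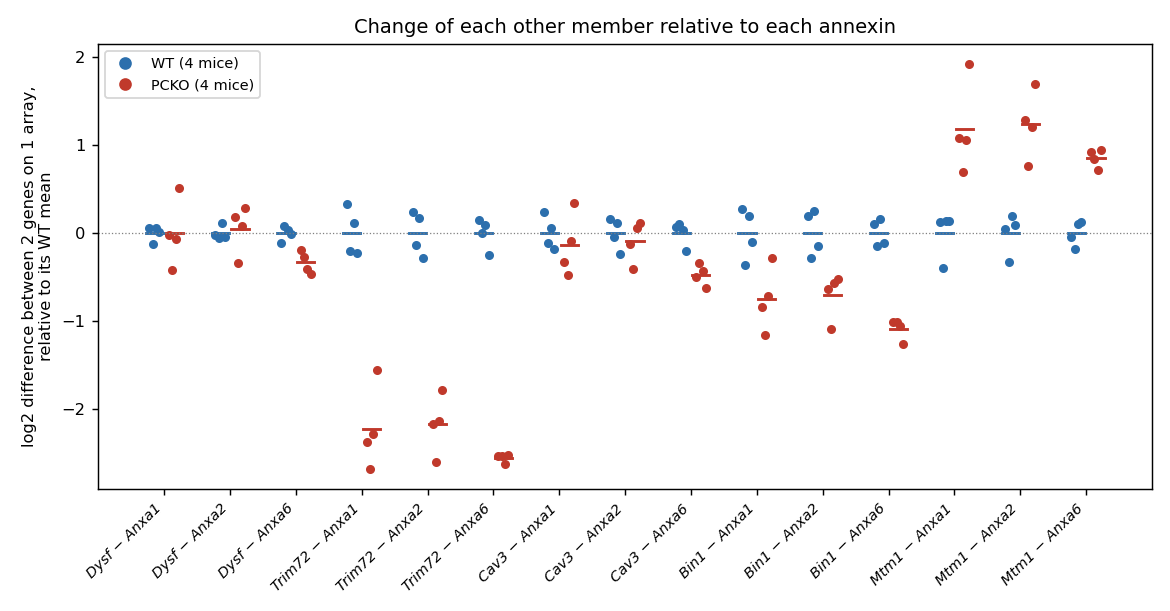
Log2 difference between a member outside the annexin family and an annexin on the same array, relative to the WT mean of that pair, for 15 pairs in 4 WT (blue) and 4 PCKO (red) mice. Points are mice and bars are group means. Trim72 lies more than 2 units lower on average and Mtm1 higher against each annexin, and Dysf overlaps with WT against Anxa1 and Anxa2.

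In whole muscle, fewer cells of a type and less RNA per cell cannot be told apart, and the annexin members are expressed in several of the cell types present. Several of the lists of markers for these cells were lower as well. The counts are to be read against all genes tested, of which 31.9% were lower and 37.5% higher. On spike-in centring these shares were 9.4% and 54.1%. The summed scaled signal of 8 fibroblast markers ran from 469 to 561 in PCKO mice and from 842 to 1074 in WT mice, and all 8 were lower. That of 7 tested macrophage and leukocyte markers ran from 14.2 to 24.1 against 31.3 to 40.1 (5 of 7 lower), and that of 7 endothelial markers from 17.7 to 26.5 against 28.9 to 31.7 (6 of 7 lower). All 5 tendon markers and all 6 of smooth muscle and pericytes were also lower, and each tested marker of these lists was well above background on all WT arrays. The 9 fast-fibre markers were all lower as well, with sums of 2576 to 3075 against 6317 to 7752, although quantile normalization called 5 of them lower and 1 higher. On spike-in centring 5 of the 9 fibre markers, 5 of the 8 fibroblast markers, 1 of the 7 macrophage markers and 0 of the 7 endothelial markers were lower. Dcn and Gsn, the brightest fibroblast markers, weigh most in the fibroblast sum and were not lower on spike-in centring (0.04 and 0.30). Csf1r weighs most in the macrophage sum, and its other probes ran from -0.87 to 0.26. Cdh5 and Cldn5 weigh most in the endothelial sum, and Cldn5 was not called (-0.32, limma adjusted p = 0.48). Of the other lists, 3 of 4 tested satellite cell markers and 1 of 4 Schwann cell markers were lower, and limma called 0 of 4 adipocyte and 0 of 2 neutrophil markers in either direction. The part of these cell types in the annexin values was not tested.

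Genes of the same structures were taken from 6 lists of 100 genes, of which 82 were tested. In all 38 were lower and 24 higher, shares of the list to be read against 31.9% and 37.5% of all genes, with a median log2 difference of -0.20. On spike-in centring 13 of the 82 were lower and 35 higher, beside 9.4% and 54.1% of all genes.

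Genes of caveolae were mostly lower, 11 of 15, with 2 higher and a median of -0.46. Cavin4, the muscle-restricted cavin, went from a mean of 6.45 in WT to 2.88 in PCKO, a log2 difference of -3.57 ± 0.21 (limma adjusted p = 1.7e-06) or 11.8-fold, beside 11.2-fold for Trim72. Pacsin3, a membrane-bending partner of caveolae, had -1.35. The widely expressed caveolins Cav1 and Cav2 had -1.07 and -1.05, and Cavin2 and Cavin3 -1.18 and -0.92. Cavin1, the cavin without which caveolae do not form, had -0.32 on its brighter probe and -0.67 on the other, and quantile normalization turned the brighter to 0.16. Ehd1 and Ehd4, ATPases of membrane recycling named here after their values were seen, were the 2 that rose, by 0.46 and 0.47, and slide row 2 alone called 0 of the 15 higher. On spike-in centring 2 of the 15 stayed lower, Cavin4 (-2.88) and Pacsin3 (-0.67), and 7 of the 15 were lower in each slide row alone and with normexp background correction.

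Among other annexins and their S100 partners, 6 of 11 tested genes were lower and 3 higher, with a median of -0.72. Anxa8 (-1.57 ± 0.29, adjusted p = 0.0014) and Anxa11 (-1.12 ± 0.11, adjusted p = 3.7e-05) fell as the members did. Anxa5, a repair annexin that forms lattices on damaged membrane, rose by 0.77 ± 0.12 (limma adjusted p = 5.3e-04), and Anxa4 (1.08) and Anxa7 (0.49), named after their values were seen, rose too. The annexin family therefore moved in both directions in this muscle. S100a10, the partner of Anxa2, had -0.97 ± 0.20 (adjusted p = 0.0027), and S100a11, a partner of Anxa1, had -0.37 (adjusted p = 0.13). On spike-in centring Anxa8 alone was lower, and Anxa4, Anxa5 and Anxa7 stayed higher.

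Ferlins, calpains and other repair partners had 5 of 17 tested genes lower and 6 higher, with a median of 0.11. Capn3, the muscle calpain mutated in a limb-girdle muscular dystrophy, had a log2 difference of -2.65 ± 0.14 (limma adjusted p = 8.7e-07), a 6.27-fold lower signal, and its second probe gave -2.98. Tfpi, a coagulation inhibitor, rose by 1.29. Myof, the ferlin nearest to Dysf, had no probe that passed the filter. Quantile normalization and spike-in centring each called 10 of the 17 higher, and the latter 1 lower.

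T-tubule and triad genes held the widest spread, with 14 of 27 lower, 8 higher and a median of -0.53. This list includes the myotubularin family. Dnm2 was among the 8 higher. The rest of them, named after their values were seen, were Bin3 and, of that family, Mtmr2, Mtmr4, Mtmr6, Mtmr9, Sbf1 and Sbf2. Mtmr7 and Mtmr14 of that family were among the lower. Tcap, the titin cap that links the Z-disc to the tubule, had -4.45 ± 0.24 (limma adjusted p = 1.1e-06) and Ank1, whose small muscle form anchors the reticulum to the sarcomere, -4.40 ± 0.12 (adjusted p = 3.9e-08). Jph1, which ties the reticulum to the tubule, had -2.23 ± 0.10 (adjusted p = 4.8e-07). Jph2, its partner in the same junction, was well above background on 4 of 4 WT arrays and 0 of 4 PCKO arrays and was at least 11.3-fold lower. Dnm2, the dynamin mutated in centronuclear myopathy, had 0.34 on its brighter probe and -0.31 on the other. On spike-in centring 9 of the 27 stayed lower and 10 were higher, and without PCKO mouse 1 the 8 higher became 5.

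Mtmr14, a phosphatase of the myotubularin family, had -0.53 ± 0.13 (limma adjusted p = 0.0072), and its other probe -0.87, but spike-in centring turned it to 0.15 (adjusted p = 0.67). The other genes of that family are named after their values were seen. Sbf2 (0.99), Mtmr9 (0.70), Sbf1 (0.36), Mtmr6 (0.34), Mtmr4 (0.29) and Mtmr2 (0.18, but -0.32 on its other probe) were higher. Mtmr7 was lower at -0.87 (-0.19 on spike-in centring, limma adjusted p = 0.59). Mtmr1, Mtmr3, Mtmr10 and Mtmr12 were not called. In the list of phosphoinositide 3-kinases and the PIKfyve complex, 1 of 8 genes was lower and 4 higher, with a median of 0.42. This list also holds Inpp5k, of neither group and named after its value was seen, which was among the higher (0.49). The higher genes included Fig4 (1.02), a phosphatase, and Pikfyve (0.99), the kinase of the same complex. The lower gene was Vac14 (-0.73, adjusted p = 0.0015), the scaffold of that complex, named after its value was seen. On spike-in centring 0 of the 8 were lower and 7 higher. Of 4 tested anoctamins, Ano1 had -1.05 ± 0.17 (adjusted p = 7.6e-04), Ano10 0.29, and Ano6, a scramblase of the cell surface, 0.21 (adjusted p = 0.11). The rise of Ano10 was not called without PCKO mouse 3, and spike-in centring called 0 of the 4 lower and 3 higher.

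**Figure D4:**
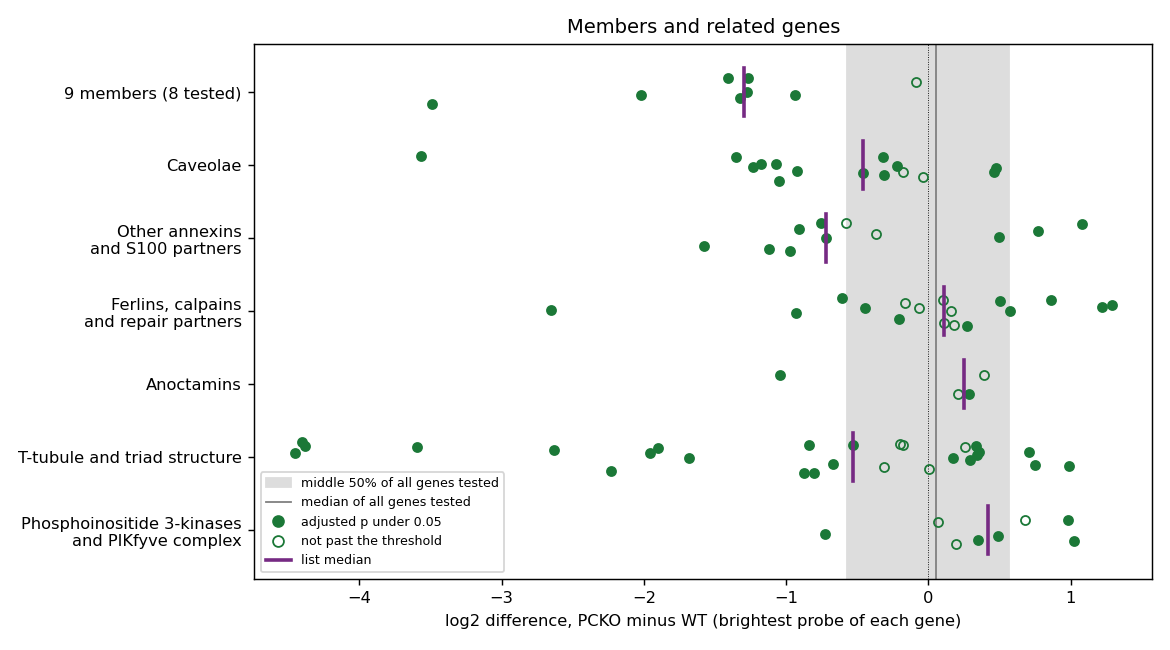
Log2 difference, PCKO minus WT, of the brightest probe of each tested member and of each tested gene in 6 related lists. Filled points passed the threshold, open points did not, purple bars are list medians and the grey band holds the middle 50% of all genes tested. The 8 tested members have a median of -1.30, and the T-tubule list runs down to -4.45 (Jph2, at -4.38, is a bound in the text).

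The genes nearest to each member in pattern over the 8 arrays were sought among 11557 genes, by the smallest root mean square difference after centring each gene on its own mean. Trim72 lay nearest to Asb10 (0.08) and Usp2 (0.10), which had differences of -3.36 and -3.54. Bin1 lay nearest to Dyrk1b and Cdh13, Cav3 to Ak6 and Hacd1, and Dysf to Mcl1 and Cd55. Anxa1 lay nearest to Adgre1, the F4/80 antigen of macrophages, and Ptpre, Anxa2 to Ebf2 and Vav3, and Anxa6 to Asb8 and Fgfr1. Mtm1 lay nearest to Eif3l and Nmt2, neither of which differed by more than 0.07 between groups. With 2 groups of 4 mice this likeness is mostly that of the group difference.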

How the data were processed

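Single-colour Agilent arrays were hybridised with Cy3-labelled total RNA of EDL muscle, 1 array for each of 4 PCKO and 4 WT mice, per the labels' protocols. The deposited scanner files hold spot intensity values from Feature Extraction 10.7.3.1, background-subtracted and spatially detrended within each array, per the file headers, with nothing normalized between arrays. Log2 values of the deposited series table, made by steps not given in the sources used here, served as an alternative.

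Processed intensity was scaled to the 75th percentile of each array's non-control probes and analysed as log2, without control spots and spots marked as outliers. None of the members' spots was so marked. Probes well above background on at least 4 of 8 arrays (24872) were fitted by lmFit and eBayes of limma 3.58.1 (R 4.3.3) with group as the sole term, two-sided, with Benjamini-Hochberg adjustment over all of them and a threshold of 0.05. The fit was tested on simulated data. A gene is its brightest tested probe. The probe accessions of 26582 probes matched 1 RefSeq symbol and 29099 probes stayed unnamed. Where 1 group was well above background throughout and the other never, the fold is a lower bound: the bright mean against a dim mean in which each array takes its probe value or its lowest signal well above background, whichever is larger.

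The members and gene lists were chosen with earlier results of these data known. Named genes were the members, both targeted genes, 16 fixed partners, in each related list the 2 largest differences called with non-overlapping groups, and 2 nearest genes per member in pattern. Replicate numbers were not treated as pairs of mice. The number of arrays limits the precision. Alternatives changed the scaling, background correction, filter, spot flags, variance model, blocks, probes per gene and mice included. Probe sequences were not used here, so cross-hybridisation between related genes was not examined.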

Additional observations from a re-analysis of the deposited data

Results flagged for a closer look

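Among the 22 groups of 4 values of member probes, 1 held a mouse far from the others: WT mouse 4 had the lowest Cav3 signal of its group, and its gap to the next mouse made up 0.954 of the range of the group. Its scaled log2 value was 5.92, against 6.24 to 6.26 in the other 3 WT mice. Chance marks about 1 in 20 such groups. The cause was not tested.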

How the results depend on the processing

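Trim72, Cav3 and Bin1 were lower and past the threshold under all 23, 24 and 24 of their alternatives, and Dysf, Anxa2 and Anxa6 under 22 of 23 each and both Anxa1 probes under 45 of 46, spike-in centring being the exception. Spike-in centring left 3 member genes lower (4 probes lower, 1 higher), 13 related genes lower, 1198 of all genes lower, and 2388 probes lower and 13139 higher of all probes. The deposited values list fewer probes and lack those of Trim72, Dysf, Anxa2 and Anxa6. Of the 4 member genes tested in them, 3 were lower (4 of 6 probes lower, 1 higher). They gave 24 related genes lower, 2358 of all genes lower, and 4023 probes lower and 5371 higher. Of 3 pairs, 0 passed the threshold. Mtm1 relative to Anxa1 alone had passed before (1.05 in the deposited values, exact test, adjusted p = 0.0857), and Cav3 and Bin1 relative to Anxa1 had not. With 2 mice per group, slide row 1 alone gave 3156 of all genes, 5436 of all probes, 13 related genes and 1 member probe higher, and row 2 alone 3119, 5458 and 13 (0 member probes). The 1 member probe higher was in each case the dimmer of Mtm1 (0.76, adjusted p = 0.0225, in row 1, 0.24 and 0.048 in the deposited values); leaving out 1 mouse gave 0 to 1, with 1 without PCKO mouse 3 (0.52, adjusted p = 0.0234), and 7 member genes lower in every case. Signs also turned, with all mice included, for these values not past the threshold: Mtm1 (dimmer probe -0.16 with normexp; brighter 0.60 with spike-in centring, 0.052 with normexp, 0.16 for the mean of its probes), Dysf relative to Anxa2 (-0.057 with quantile normalization) and to Anxa1 (0.088 with normexp, 0.13 for mean of probes), and Cav3 relative to Anxa1 (0.011 in the deposited values). Slide row 1 alone turned Dysf relative to Anxa2 (-0.044), and row 2 alone Dysf relative to Anxa1 (0.19) and Cav3 relative to Anxa1 (0.19) and Anxa2 (0.15). Leaving out 1 mouse turned Dysf relative to Anxa1 (up to 0.14, without PCKO mouse 2), Dysf relative to Anxa2 (-0.028, without PCKO mouse 4) and Cav3 relative to Anxa2 (0.015, without PCKO mouse 2). Dysf relative to Anxa6 no longer passed with normexp (-0.27, adjusted p = 0.117). The cause of these changes was not tested. Pair tests without 1 mouse (smallest p 0.0571), within a row (0.333) or over sign flips (0.125) cannot pass the threshold. In the deposited values, a lone pair at the smallest exact p (0.0286) cannot pass after adjustment over 3 pairs. With the replicate number as a block, 7 member genes were lower and none higher, with Trim72 at -3.49 (limma adjusted p = 2.6e-05); same-numbered mice correlated at 0.015 to 0.089, so the numbers are not treated as pairs, and 3 of the 4 PCKO mice correlated best with their own number. The array has 1 spot per member probe, and dim probes (Ano5, Mtm1) are limited by signal over background.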
